A study of Mustela putorius furo with 20 samples.

Results

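The fibroblast growth factor (FGF) genes of the ferret are described here: the ligands, the receptors, the adaptors and carriers that serve them, and the target and feedback genes that FGF signalling is known for. Members were taken by symbol, with earlier results of these data known, as FGF genes with a number, *FGFR1* to *FGFR4*, *FGFRL1*, *FRS2*, *FRS3*, the *FGFBP* carriers, *ETV1*, *ETV4*, *ETV5*, and the *SPRY*, *SPRED* and 2 *DUSP* feedback genes. The rule found 40 genes among the 32,057 gene identifiers counted, and 23 of the 40 had enough reads to be tested, among 12,669 genes tested in all. *FGF3*, *FGF13*, *FGFBP2* and *SPRY3* matched no identifier and were not analysed here.

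Secreted FGFs bind heparan sulfate and a receptor tyrosine kinase at the cell surface. The activated receptor phosphorylates the adaptor FRS2, which recruits GRB2 and PTPN11 and starts the RAS–MAPK cascade, and the ETS transcription factors ETV1, ETV4 and ETV5 are among its transcriptional outputs. The same cascade induces its own brakes, the Sprouty and SPRED proteins and the MAPK phosphatases DUSP4 and DUSP6. In the developing cortex the pathway is known for keeping radial glia proliferative, for patterning the cortical sheet, and later for the generation of oligodendrocytes and astrocytes.

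RNA was sequenced from the outer subventricular zone (oSVZ), the progenitor layer in which basal radial glial cells reside, of ferrets (*Mustela putorius furo*) at postnatal day (P) 15 and P5. At each age the oSVZ below the coronal gyrus (CG) and below the suprasylvian sulcus (SSS) was captured by laser from 5 animals, giving 20 libraries in 4 groups of 5: P15 CG, P15 SSS, P5 CG and P5 SSS. The labels give no treatment or genotype for any group, both regions come from the same animals, and animals carry numbers from 1 to 5 in either age group. The area was outlined on Nissl-stained sections rather than by a marker of basal radial glia, so each library is a mixture of the cells lying there, pooled over sections of 1 animal. Values are read counts per gene, given as CPM, counts scaled to a common library size, and ± is the SD of 5 animals. Transcript length is not taken into account by CPM, so levels are compared between groups and not between genes.

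Libraries held 2,618,470 to 4,095,208 assigned reads in the P15 CG, 2,488,477 to 3,542,289 in the P15 SSS, 2,941,880 to 3,545,754 in the P5 CG and 2,785,162 to 4,277,326 in the P5 SSS. The P15 SSS library of animal 4 stood apart, with 1371 of the tested genes at no read against at most 366 in the other P15 libraries, and it is named beside the results below that it moves most. Radial glia markers were read in every library. Of 13 listed, 10 were found and tested, and they summed to 7000–10500 CPM in P15 libraries and 6880–11700 CPM in P5 libraries, with 3 higher and 1 lower at P15 in the CG and 4 higher and 1 lower in the SSS. *FABP7* takes a large part of these sums, with a median of 2720 CPM in the P15 CG and 5970 CPM in the P5 CG, and 2600 CPM in the P15 SSS and 4170 CPM in the P5 SSS. Astrocyte markers summed to 512–849 CPM at P15 and 62.9–250 CPM at P5, with 6 of 7 higher in both regions, and oligodendrocyte markers to 377–2860 CPM at P15 and 22–122 CPM at P5, with 5 of 5 higher in both and *MOG* without a read at P5. Markers of oligodendrocyte precursors (3 of 4) and of microglia (3 of 5) were also higher in both regions at P15, and none of 4 mural cell markers passed in either. Excitatory neuron markers summed to 140–258 CPM at P15 and 814–1670 CPM at P5, with 5 of 7 lower in the CG and 6 of 7 in the SSS, and 3 of 5 intermediate progenitor markers were lower in both, with *NEUROG1* at no read in any library. Interneuron markers summed to 870–1610 CPM at P15 and 582–851 CPM at P5, with 2 of 8 higher and 3 lower in both regions. In both, 2 of 6 endothelial markers were higher and 1 of 3 proliferation markers was lower. Of 3 tested markers of meninges and fibroblasts, 1 was higher in the SSS and none in the CG. The part of these shifts in the age differences of the FGF genes below was not tested, and in such bulk samples fewer cells of a type and less RNA per cell cannot be told apart. P5 animal 1 had the lowest ribosomal RNA ratio of the P5 animals in both regions, by the study's RNA quality record. It also had the lowest P5 oligodendrocyte sums (22 CPM in the CG, 24.5 CPM in the SSS) and the highest sums of proliferation markers (861 and 886 CPM). The part of these traits in its values below was not tested. By the same record, P15 animal 4 had the lowest ratio of the P15 animals in the CG, and P15 animal 2 in the SSS. The part of RNA quality in their values was not tested either.

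Few FGF genes passed the test between the ages. At P15 relative to P5 in the CG, *FGF1* and *SPRED1* were higher and *DUSP4* was lower (edgeR quasi-likelihood test, *FDR* < 0.05 over all genes tested). The 3 make up 13% of the 23 members, where 13.1% of all genes passed, 7.39% as higher and 5.72% as lower. In the SSS, *FGF1*, *FGFR3* and *ETV1* passed as higher at P15 and *DUSP4* as lower. The 4 make up 17.4%, where 14.6% of all genes passed, 8.19% as higher and 6.46% as lower. Both shares lie near those of all genes. At an unadjusted p below 0.05 there were 5 members in the CG, where 25.5% of all genes reached it, and 8 in the SSS, where 27.3% did. The median log2 fold change of the 23 members was 0.41 in the CG and 0.44 in the SSS, against −0.01 over all genes in each region, with 15 members above 0 and 8 below in the CG and 16 above and 7 below in the SSS. By role, the calls fell on 1 of the 4 tested secreted ligands in either region, on none of the 3 intracellular FGFs and neither of the 2 adaptors in either region, on 1 of the 5 receptors and 1 of the 2 tested ETS factors in the SSS only, and on 2 of the 7 tested feedback genes in the CG and 1 in the SSS. Whether the age change differed between the regions was tested itself, and it passed the threshold for no member.

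**Figure D1:**
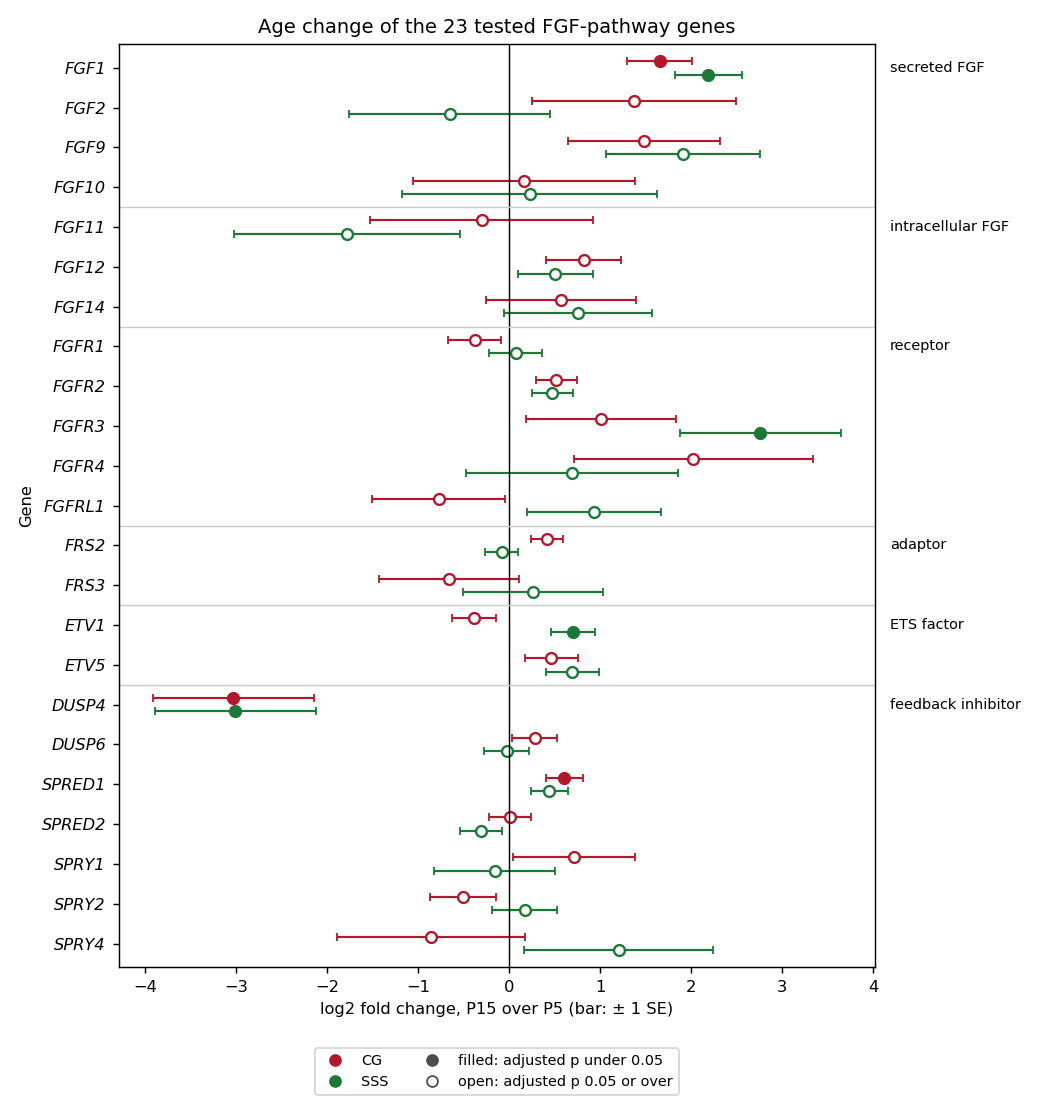
Log2 fold change of each tested FGF gene, P15 over P5, with bars of 1 SE, in the CG (red) and the SSS (green), 5 animals per group; filled points passed *FDR* < 0.05. *FGF1* lay to the right in both regions (1.66 and 2.19) and *DUSP4* to the left in both (−3.03 and −3.01), and the widest bars belong to the genes with fewest reads.

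Most ligands were thinly read. Of 17 secreted FGF genes, 14 had any read in the 20 libraries and 4, *FGF1*, *FGF2*, *FGF9* and *FGF10*, could be tested. *FGF4*, *FGF6* and *FGF22* had no read in 63,483,061, which allows up to 3 reads in all or 0.0473 CPM. Such limits treat each read as independent and may be too low. They also cover only reads assigned to annotated genes, and the study names the limited ferret annotation as lowering the accuracy of mapping and counting. The remaining 10 ligands had few reads. The map of ligand reads by library shows them mostly as empty cells.

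**Figure D2:**
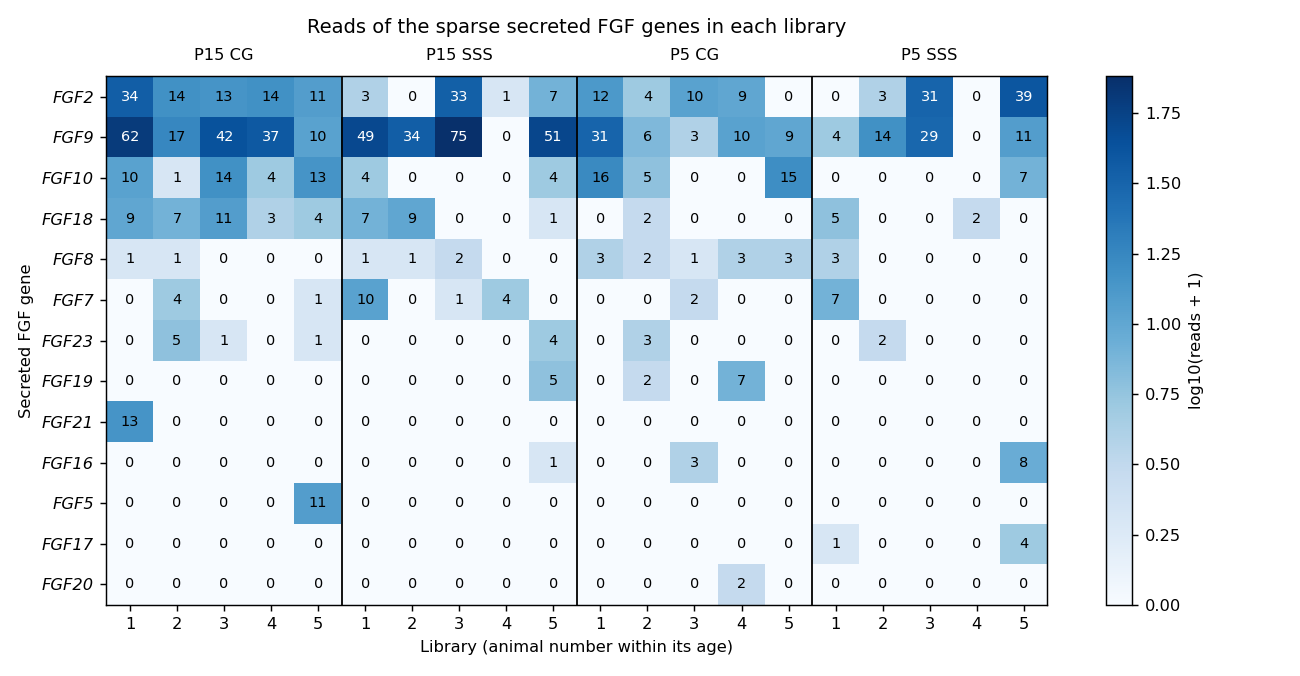
Reads of 13 thinly read secreted FGF genes (rows) in the 20 libraries (columns, grouped as P15 CG, P15 SSS, P5 CG and P5 SSS), coloured by log10 of reads plus 1, with the number of reads printed in each cell. *FGF9* was read in 18 of 20 libraries and reached 75 reads in 1 P15 SSS library, while most other rows are at 0 in most libraries.

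*FGF1*, a ligand able to activate all FGF receptors, was the member with the firmest age difference. It had 80.05, 41.4, 49.1, 71.7 and 67.98 CPM in the P15 CG of animals 1 to 5, against 27.6, 22.3, 23.01, 10.5 and 14.9 CPM in the P5 CG. Sulcal values of the gene were 35.5, 66.5, 31.7, 115.7 and 53.7 CPM at P15, against 12.2, 16.9, 7.17, 9.08 and 20.9 CPM at P5. In either region every P15 library lay above every P5 library, which held for 7.32% of all genes in the CG and 5.52% in the SSS. No other tested member was so separated, and none of them lay wholly lower at P15, as 5.49% of all genes did in the CG and 4.43% in the SSS. Means were 62.0 ± 16.2 CPM at P15 and 19.7 ± 6.85 CPM at P5 in the CG, a 3.15-fold difference (log2 1.66, SE 0.36, edgeR *FDR* = 0.00165). In the SSS they were 60.6 ± 33.8 CPM at P15 and 13.2 ± 5.63 CPM at P5, a 4.56-fold difference (log2 2.19, SE 0.37, edgeR *FDR* = 7.97e-05). The highest P15 SSS value, 115.7 CPM, came from the library that stood apart, and without it the SSS log2 fold change was 1.82 (edgeR *FDR* = 4.05e-04). *FGF1* kept its call in both regions under each of the 19 alternatives tried.

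*FGF9*, a ligand that neurons release and that acts on glia in the mouse, showed higher P15 means that did not pass the test. Its reads were 62, 17, 42, 37 and 10 in the P15 CG of animals 1 to 5, against 31, 6, 3, 10 and 9 in the P5 CG. The SSS counts were 49, 34, 75, 0 and 51 at P15, against 4, 14, 29, 0 and 11 at P5. The ages overlapped in both regions. Mean levels were 10.8 ± 6.80 CPM at P15 and 3.85 ± 3.99 CPM at P5 in the CG (log2 1.48, edgeR *FDR* = 0.276), and 12.6 ± 7.85 CPM at P15 and 3.31 ± 2.73 CPM at P5 in the SSS (log2 1.91, edgeR *FDR* = 0.135). Without the P15 SSS library of animal 4, which held no *FGF9* read, the SSS difference passed (log2 2.22, edgeR *FDR* = 0.0409). Only 3 of the 19 alternatives tried called it in the SSS, and 0 called it in the CG.

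*FGF2*, a mitogen of cortical progenitors, had 34, 14, 13, 14 and 11 reads in the P15 CG, against 12, 4, 10, 9 and 0 in the P5 CG. Its SSS libraries held 3, 0, 33, 1 and 7 reads at P15, against 0, 3, 31, 0 and 39 at P5. Animals of 1 group differed more than the groups did, and neither age comparison passed (edgeR *FDR* = 0.493 in the CG and 0.762 in the SSS). In human the *FGF2* gene overlaps an antisense gene, and the sources used here name no strand setting for the counting, so these reads cannot be assigned to *FGF2* with certainty.

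*FGF10*, a ligand of FGFR2 that in the mouse sets the timing of radial glia differentiation, was read more often below the gyrus. It had 10, 1, 14, 4 and 13 reads in the P15 CG of animals 1 to 5, against 4, 0, 0, 0 and 4 in the P15 SSS of the same animals. At P5 it had 16, 5, 0, 0 and 15 reads in the CG, against 0, 0, 0, 0 and 7 in the SSS. At P15 the CG was higher in 5 of 5 animals, a pattern that 3.8% of all genes shared, and no member was lower in 5 of 5, as 3.23% of all genes were. Summed over animals and scaled by depth, CG over SSS was 5.12 (95% counting interval 2.37 to 12.6) at P15 and 5.02 (2.2 to 13.4) at P5. Such intervals leave out the spread between animals, and with it neither difference passed (log2 2.79, SE 1.35, edgeR *FDR* = 1.00 at P15 and log2 2.96, SE 1.59, edgeR *FDR* = 0.671 at P5).

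Among the untested ligands, *FGF18*, a ligand best known from bone growth, had 34 reads over 5 of 5 P15 CG libraries, against 2 in the P5 CG, a ratio of 17.7 with a 95% counting interval of 4.53 to 152. In the SSS it had 17 reads at P15 and 7 at P5, a ratio of 2.53 with an interval of 0.996 to 7.21. *FGF8*, the ligand that patterns the anterior forebrain, ran the other way in the CG, with 2 reads at P15 and 12 at P5, spread over 5 of 5 P5 libraries (ratio 0.173, interval 0.0188 to 0.779). In the SSS *FGF8* had 4 reads at P15 and 3 at P5. The 5 P15 CG values of *FGF18*, 1.15 CPM or more, all lay above its highest P5 CG value, 0.603 CPM. Both genes fell below the filter on low counts, and in the fit with no filter, which takes in the spread between animals, neither passed in the CG (*FGF18* log2 3.74, edgeR *FDR* = 0.175, and *FGF8* log2 −2.19, edgeR *FDR* = 0.512).

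The other untested ligands had 2 to 29 reads each and showed no common pattern. *FGF7*, a ligand of the FGFR2 splice form of epithelia, had 5, 15, 2 and 7 reads in the P15 CG, P15 SSS, P5 CG and P5 SSS. *FGF23*, a hormone of phosphate balance, had 7, 4, 3 and 2 reads in the same order, and *FGF19*, a gut hormone of bile acid metabolism, had 0, 5, 9 and 0. All 13 reads of *FGF21* and all 11 of *FGF5* came from 1 P15 CG library each, so they describe single captures. *FGF16*, *FGF17* and *FGF20* had 12, 5 and 2 reads in all. Of the carriers, which release FGFs from heparan sulfate, *FGFBP1* had no read, and 24 of the 38 reads of *FGFBP3* came from the P15 SSS library that stood apart.

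The intracellular FGFs are not secreted and are known as partners of voltage-gated sodium channels. *FGF12* had 36.4, 40.05, 44.4, 20.7 and 38.7 CPM in the P15 CG, against 5.59, 16.6, 24.97, 21.9 and 33.03 CPM in the P5 CG (log2 0.82, SE 0.42, edgeR *FDR* = 0.213). Below the SSS it had 42.2, 27.6, 38.5, 23.1 and 32.8 CPM at P15, against 4.68, 36.2, 31.1, 15.99 and 27.2 CPM at P5 (log2 0.51, edgeR *FDR* = 0.465). The ages overlapped in both regions, and P5 animal 1 gave the lowest value of its age in both. *FGF14* averaged 4.90 ± 2.31 CPM in the P15 CG and 3.27 ± 1.957 CPM in the P5 CG, and 9.00 ± 9.43 CPM in the P15 SSS and 5.24 ± 4.77 CPM in the P5 SSS, where the P15 library that stood apart gave 24.95 CPM and the other 4 P15 libraries 0.273 to 8.11 CPM. *FGF11* had 15, 4, 9, 4 and 4 reads in the P15 CG and 10, 2, 17, 0 and 0 in the P15 SSS, against 0, 0, 5, 0 and 40 in the P5 CG and 0, 6, 66, 20 and 14 in the P5 SSS. Single libraries held most reads of *FGF11*, 40 of 45 in the P5 CG and 66 of 106 in the P5 SSS.

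Among the receptors, *FGFR1*, *FGFR2* and *FGFR3* were read in every library, and *FGFR3* passed as higher at P15 in the SSS. *FGFR2*, a receptor that radial glia and later oligodendrocytes and astrocytes carry, had 251.4, 263.3, 277.4, 284.4 and 218.2 CPM in the P15 CG, against 235.1, 186.8, 167, 145.7 and 169 CPM in the P5 CG. The SSS libraries held 205.6, 240.3, 251.2, 118.4 and 232.8 CPM at P15, against 263, 100, 148.7, 125.3 and 117.9 CPM at P5. In the CG 4 of the 5 P5 libraries lay below every P15 library, and P5 animal 1 was the highest of its age in both regions. The means were 258.9 ± 26.1 CPM at P15 and 180.7 ± 33.7 CPM at P5 in the CG (log2 0.52, SE 0.22, edgeR *FDR* = 0.129), and 209.7 ± 53.7 CPM at P15 and 151.0 ± 65.0 CPM at P5 in the SSS (log2 0.48, SE 0.22, edgeR *FDR* = 0.162). Neither passed, but both did without P5 animal 1 (CG edgeR *FDR* = 0.0343, SSS edgeR *FDR* = 0.00906). The SSS difference also did without the P15 SSS library of animal 4 (log2 0.62, edgeR *FDR* = 0.047). Under the 19 alternatives tried for each region, *FGFR2* was called by only 2 in the CG and 3 in the SSS.

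*FGFR3*, a receptor known from ventricular progenitors and from astrocytes, had 12.1, 4.32, 2.19, 19.1 and 11.2 CPM in the P15 SSS of animals 1 to 5, against 0.360, 2.07, 0.478, 1.09 and 3.02 CPM in the P5 SSS. In the CG it had 3.31, 3.61, 3.97, 9.96 and 19.7 CPM at P15, against 0.699, 8.44, 0.281, 2.62 and 7.94 CPM at P5. In the SSS only the P15 value of animal 3 fell within the P5 range, whereas in the CG the ages overlapped widely. The SSS means were 9.77 ± 6.73 CPM at P15 and 1.40 ± 1.13 CPM at P5, from 138 and 22 reads (log2 2.76, SE 0.88, edgeR *FDR* = 0.0321), and the CG means were 8.12 ± 7.05 CPM at P15 and 4.00 ± 3.93 CPM at P5 (log2 1.01, SE 0.82, edgeR *FDR* = 0.488). The difference between the 2 age changes was not past the threshold (log2 −1.43, edgeR interaction *FDR* = 0.998). The SSS call was lost on leaving out P15 animal 1, 4 or 5, P5 animal 1, 3 or 4, or the P15 SSS library of animal 4 alone (edgeR *FDR* 0.0556 to 0.0822).

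*FGFR1*, the receptor most often linked to the proliferation of cortical progenitors, had 39.03, 62.4, 64.5, 32.96 and 44.95 CPM in the P15 CG, against 66.7, 52.1, 51.6, 72.9 and 74.6 CPM in the P5 CG. Its values in the SSS were 62.7, 58.8, 71.8, 39.01 and 40.5 CPM at P15, against 97.2, 53.1, 49.01, 29.8 and 31.1 CPM at P5. The ages overlapped in both regions (log2 −0.38, edgeR *FDR* = 0.452 in the CG and log2 0.07, edgeR *FDR* = 0.910 in the SSS). *FGFR4* had 29 reads in the P15 CG, 82 in the P15 SSS, 7 in the P5 CG and 65 in the P5 SSS, the last all from animal 3. *FGFRL1*, a receptor without a kinase domain, averaged 7.39 ± 2.76 CPM in the P15 CG and 12.7 ± 10.3 CPM in the P5 CG, and 12.8 ± 10.4 CPM in the P15 SSS and 6.64 ± 6.39 CPM in the P5 SSS, without passing in either region (edgeR *FDR* = 0.568 and 0.449). Its highest P15 SSS value, 29.9 CPM, also came from animal 4, and the others there were 1.99 to 12.1 CPM.

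**Figure D3:**
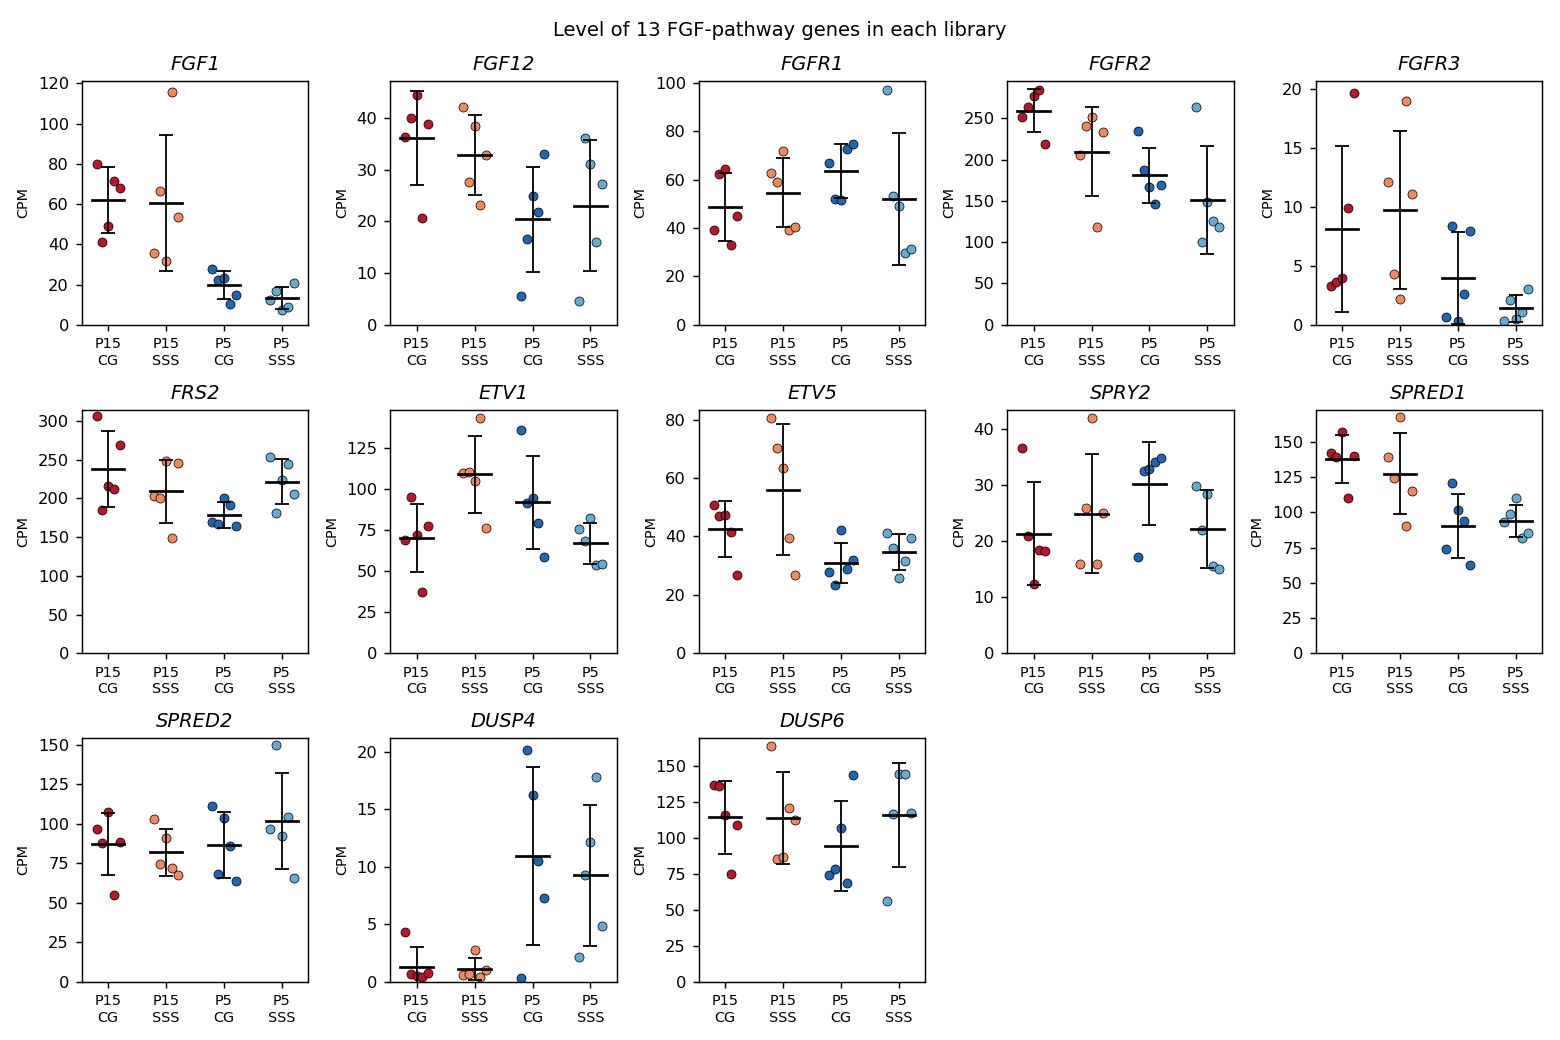
CPM of the 13 FGF genes given by library in the text, 1 panel per gene with its own axis from 0, for the P15 CG, P15 SSS, P5 CG and P5 SSS; points are the 5 animals of a group, the line is the mean and the bar the SD. *FGF1* has 2 separate levels by age, *DUSP4* lies near 1 CPM in most P15 libraries, and in most other panels the 4 groups overlap.

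Of the adaptors, *FRS2*, the docking protein through which FGF receptors reach the MAPK cascade, had 307, 184.8, 215.9, 212.3 and 268.6 CPM in the P15 CG, against 169.8, 167.2, 200.9, 191.2 and 163.9 CPM in the P5 CG. In the SSS it had 203.6, 200.1, 248, 149.2 and 245.3 CPM at P15, against 253.3, 181.8, 224.2, 244.1 and 205.6 CPM at P5. The P15 CG values lay mostly above those of the P5 CG, and in the SSS the ages overlapped fully. The log2 fold change was 0.41 (SE 0.18, edgeR *FDR* = 0.129) in the CG and −0.08 (SE 0.18, edgeR *FDR* = 0.818) in the SSS. Its relative *FRS3* averaged 4.53 ± 2.79 CPM in the P15 CG and 7.17 ± 2.35 CPM in the P5 CG, and 5.17 ± 4.304 CPM in the P15 SSS and 4.33 ± 2.48 CPM in the P5 SSS.

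Of the ETS factors, *ETV1* passed as higher at P15 in the SSS, and *ETV5* had a like fold there that did not pass. *ETV1*, which also marks subsets of cortical projection neurons, had 110, 110.4, 104.9, 143.4 and 76.7 CPM in the P15 SSS of animals 1 to 5, against 75.9, 68.3, 82.5, 53.8 and 54.7 CPM in the P5 SSS. In the CG it had 68.8, 95.2, 72.2, 37.6 and 77.8 CPM at P15, against 135.9, 91.6, 94.6, 79.6 and 58.4 CPM at P5. In the SSS 4 of the 5 P15 libraries lay above every P5 library, whereas in the CG the ages overlapped. The SSS means were 109.1 ± 23.7 CPM at P15 and 67.04 ± 12.7 CPM at P5 (1.62-fold, log2 0.70, SE 0.24, edgeR *FDR* = 0.0490), and the CG means were 70.3 ± 20.9 CPM at P15 and 92.0 ± 28.4 CPM at P5 (log2 −0.39, SE 0.24, edgeR *FDR* = 0.336). The SSS call sat at the threshold and was lost on leaving out P15 animal 1, 2, 3 or 4, P5 animal 2, 4 or 5 (edgeR *FDR* 0.072 to 0.117), or the P15 SSS library of animal 4 alone (log2 0.58, edgeR *FDR* = 0.116).

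*ETV5*, the ETS factor most tied to FGF signalling in cortical progenitors, had 80.6, 70.1, 63.4, 39.5 and 26.7 CPM in the P15 SSS, against 41.02, 35.9, 25.8, 31.6 and 39.3 CPM in the P5 SSS (log2 0.69, SE 0.29, edgeR *FDR* = 0.11). In the CG it had 50.6, 46.9, 47.4, 41.4 and 26.7 CPM at P15, against 27.9, 23.5, 42.1, 28.9 and 32.1 CPM at P5 (log2 0.46, edgeR *FDR* = 0.335). Animal 5 gave the lowest P15 value in both regions, and without it the SSS difference passed (log2 0.87, edgeR *FDR* = 0.035). This was the only 1 of the 19 alternatives tried that called *ETV5* in the SSS. *ETV4*, the third of the group, had 39 reads in the P15 CG, 22 in the P15 SSS, 26 in the P5 CG and 28 in the P5 SSS and could not be tested.

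Among the feedback genes, *DUSP4*, a nuclear phosphatase of MAP kinases, was lower at P15 in both regions. It had 4.3, 0.656, 0.467, 0.383 and 0.731 CPM in the P15 CG of animals 1 to 5, against 0.349, 20.2, 16.3, 10.5 and 7.30 CPM in the P5 CG. Sulcal values of the gene were 0.578, 0.665, 2.73, 0.454 and 1.014 CPM at P15, against 2.159, 9.31, 12.2, 17.8 and 4.84 CPM at P5. P5 animal 1 stood at P15 levels, and with it the ages overlapped, while the other 4 P5 animals exceeded every P15 library of the same region. Reads came to 20 at P15 and 185 at P5 in the CG and to 18 at P15 and 149 at P5 in the SSS. The means were 1.31 ± 1.68 CPM at P15 and 10.9 ± 7.74 CPM at P5 in the CG, 8.17-fold lower at P15 (log2 −3.03, SE 0.88, edgeR *FDR* = 0.0196), and 1.09 ± 0.94 CPM at P15 and 9.26 ± 6.16 CPM at P5 in the SSS, 8.05-fold lower at P15 (log2 −3.01, SE 0.89, edgeR *FDR* = 0.0198). The CG call was lost without P15 animal 2, 3 or 5 or P5 animal 2 or 3 (edgeR *FDR* 0.0538 to 0.0704), and the SSS call without P15 animal 2 or P5 animal 4 (0.0553 and 0.0665). The size also rested on single P15 animals, with a log2 fold change of −4.20 in the CG without P15 animal 1 (edgeR *FDR* = 0.00433) and −3.66 in the SSS without P15 animal 3 (edgeR *FDR* = 0.0164). *DUSP4* fell in the same comparison as the summed excitatory neuron markers given above, and their part in it was not tested.

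*DUSP6*, the cytoplasmic phosphatase that acts on ERK and a widely used readout of FGF signalling, had 136.3, 135.6, 115.7, 74.7 and 108.5 CPM in the P15 CG, against 74.1, 78.03, 106.6, 68.5 and 143.2 CPM in the P5 CG. Below the SSS it had 163.8, 85.1, 86.3, 120.7 and 112.5 CPM at P15, against 56.1, 116.6, 144.4, 144.2 and 117.3 CPM at P5. The ages overlapped in both regions, and neither comparison passed (log2 0.28, edgeR *FDR* = 0.541 in the CG and log2 −0.03, edgeR *FDR* = 0.964 in the SSS). The sign of the SSS value turned positive with other scalings of the libraries.

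*SPRED1*, a membrane protein that recruits NF1 to switch RAS off, was higher at P15 in the CG. It had 141.9, 139.2, 157, 110 and 140 CPM in the P15 CG, against 73.7, 120.5, 101.3, 93.5 and 62.9 CPM in the P5 CG. The SSS libraries held 139.2, 124.3, 167.7, 90.3 and 115.2 CPM at P15, against 92.8, 98.99, 110, 82.1 and 85.2 CPM at P5. In the CG only P15 animal 4 overlapped the P5 values. The CG difference was 1.52-fold (137.6 ± 17.1 CPM at P15 and 90.4 ± 22.8 CPM at P5, log2 0.61, SE 0.20, edgeR *FDR* = 0.0410) and the SSS difference did not pass (127.3 ± 28.7 CPM at P15 and 93.8 ± 11.2 CPM at P5, log2 0.44, SE 0.20, edgeR *FDR* = 0.145). The age changes of the regions were not shown to differ (log2 0.21, edgeR interaction *FDR* = 0.998), and the CG call was lost without P15 animal 1, 2, 3 or 5 or P5 animal 1, 3, 4 or 5 (edgeR *FDR* 0.0527 to 0.14).

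*SPRED2*, its close relative, had 96.6, 87.97, 107.3, 54.8 and 88.8 CPM in the P15 CG, against 111.1, 68.4, 103.5, 86.3 and 63.8 CPM in the P5 CG. Its values in the SSS were 103.4, 74.8, 91.2, 72.1 and 67.9 CPM at P15, against 96.8, 149.7, 92.3, 104.6 and 65.9 CPM at P5. The ages overlapped (log2 0.01, edgeR *FDR* = 0.987 in the CG and log2 −0.31, edgeR *FDR* = 0.411 in the SSS). *SPRED3* had 7, 8, 10 and 35 reads in the P15 CG, P15 SSS, P5 CG and P5 SSS and could not be tested. Its ratio of P15 to P5 was 0.238 in the SSS (95% counting interval 0.0953 to 0.522) and 0.728 in the CG (0.235 to 2.12). In the fit with no filter, which takes in the spread between animals, it did not pass in the SSS (log2 −2, edgeR *FDR* = 0.486).

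*SPRY2*, a Sprouty protein that restrains receptor signalling to RAS, had 36.7, 21.01, 12.4, 18.4 and 18.3 CPM in the P15 CG, against 17.1, 32.5, 32.8, 34.1 and 34.9 CPM in the P5 CG. In the SSS it had 15.9, 25.9, 42.05, 15.9 and 25.01 CPM at P15, against 29.9, 22.1, 28.4, 15.6 and 15.1 CPM at P5. In the CG 4 of the 5 P5 values lay close together, above 4 of the 5 P15 values, and P5 animal 1 lay apart below them (log2 −0.51, edgeR *FDR* = 0.412). In the SSS the ages overlapped (log2 0.17, edgeR *FDR* = 0.818). *SPRY1* averaged 8.60 ± 5.83 CPM in the P15 CG and 5.23 ± 3.76 CPM in the P5 CG, and 8.28 ± 3.82 CPM in the P15 SSS and 9.28 ± 5.34 CPM in the P5 SSS. *SPRY4* averaged 2.30 ± 0.84 CPM in the P15 CG and 4.17 ± 5.06 CPM in the P5 CG, and 5.34 ± 3.92 CPM in the P15 SSS and 2.30 ± 3.84 CPM in the P5 SSS. Neither passed in either region.

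Gyral and sulcal oSVZ were then compared inside each animal (animal as a block in the model), since a gyrus and a sulcus might differ in FGF signalling as folding begins and proceeds. No member passed at P15 or at P5 (edgeR, 0 of 23 at each age, where 0.0158% of all genes passed at P15 and 0.0395% at P5). At an unadjusted p below 0.05 there was 1 member at P15, *ETV1*, where 3.72% of all genes reached it, and 1 at P5, *FRS2*, where 8.03% did. DESeq2, limma-voom and the newer quasi-likelihood test of edgeR also called 0 members at either age. In simulated libraries the region tests called 10 of 100 planted 2-fold differences at P15 and 18 of 100 at P5. A count of 0 calls therefore does not show equal levels. The median log2 difference of the members, CG over SSS, was −0.06 at P15 and 0.27 at P5, against 0.03 and 0.02 over all genes. Members ranged from −1.41 to 2.79 at P15 and from −2.95 to 2.96 at P5, with the extremes among the thinly read genes.

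**Figure D4:**
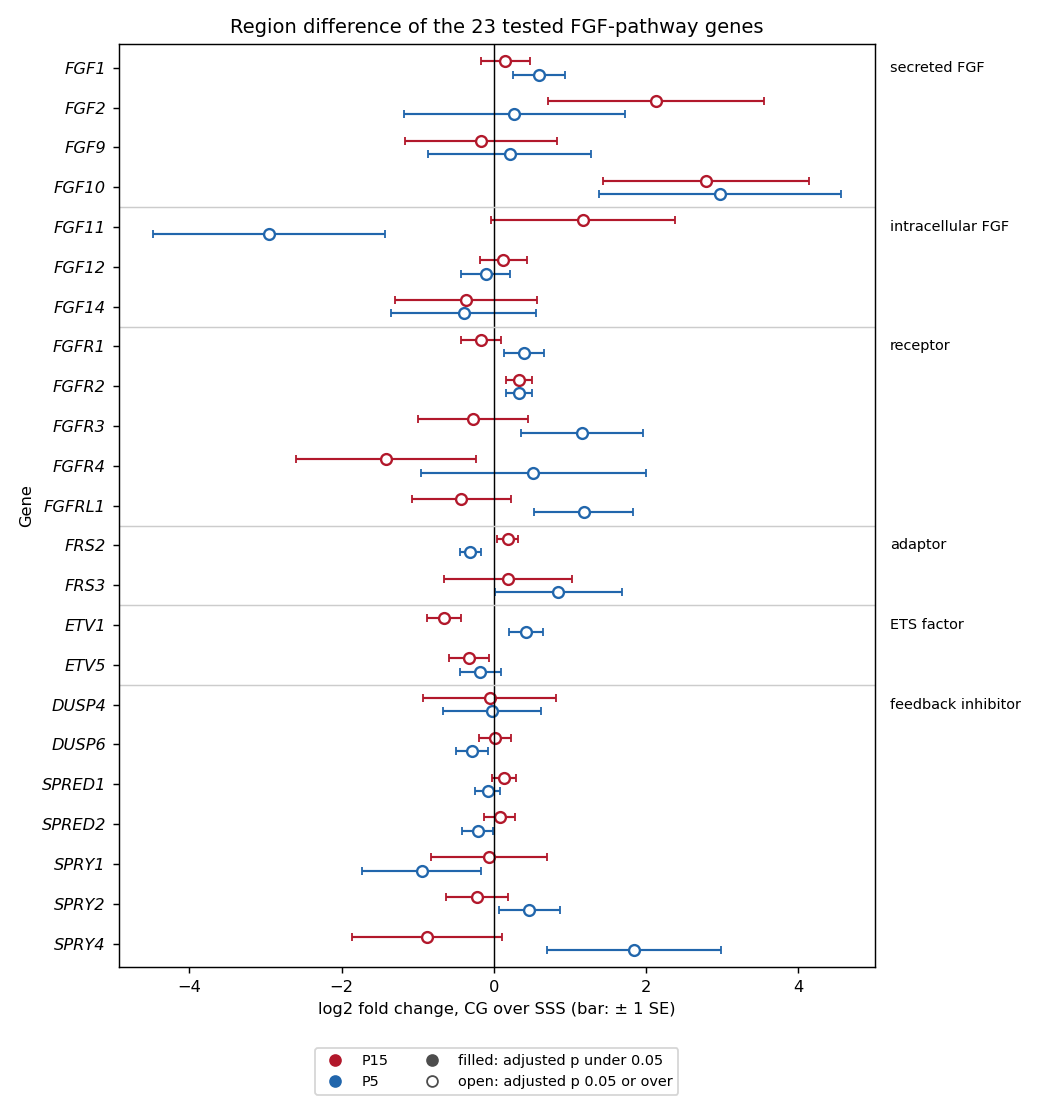
Log2 difference of each tested FGF gene, CG over SSS, within animals, with bars of 1 SE, at P15 (red) and P5 (blue), 5 animals per age. All points are open, since none passed *FDR* < 0.05. *ETV1* and *FRS2* lie on opposite sides of 0 at the 2 ages, as do several other members, such as *FGF11* and *SPRY4*.

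*ETV1* and *FRS2*, whose values by animal are given above, were the members nearest to a regional difference. *ETV1* in the CG lay below the SSS for 4 of 5 animals at P15 (log2 −0.65, SE 0.22, edgeR *FDR* = 1.00) and above it for 5 of 5 animals at P5 (log2 0.42, SE 0.22, edgeR *FDR* = 0.662). The change of the difference with age had a log2 value of −1.07 (SE 0.31), with an edgeR *FDR* of 0.998 over all genes. The largest P15 gap was that of animal 4, with 37.6 CPM in the CG and 143.4 CPM in the SSS, and without that SSS library the P15 difference was −0.35 and the change with age −0.78. *FRS2* in the CG lay below the SSS for 5 of 5 animals at P5 (log2 −0.31, SE 0.14, edgeR *FDR* = 0.585), where 4.38% of all genes were lower in 5 of 5, and not at P15 (log2 0.18, SE 0.14, edgeR *FDR* = 1.00). Its change of the difference with age was 0.49 (SE 0.20, edgeR *FDR* = 0.998).

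*FGFR2* was higher on the CG side in 4 of 5 animals at each age, with log2 differences of 0.34 (SE 0.17, edgeR *FDR* = 1.00) at P15 and 0.32 (SE 0.17, edgeR *FDR* = 0.666) at P5. The P15 value was 0.12 without the P15 SSS library of animal 4. *FGFRL1* joined *ETV1* as the 2 members higher in the CG in 5 of 5 animals at P5 (log2 1.18, edgeR *FDR* = 0.682), a pattern that 4.85% of all genes shared. *FGF1* did not keep 1 order between the regions at P15, as the lines that join the libraries of an animal cross.

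**Figure D5:**
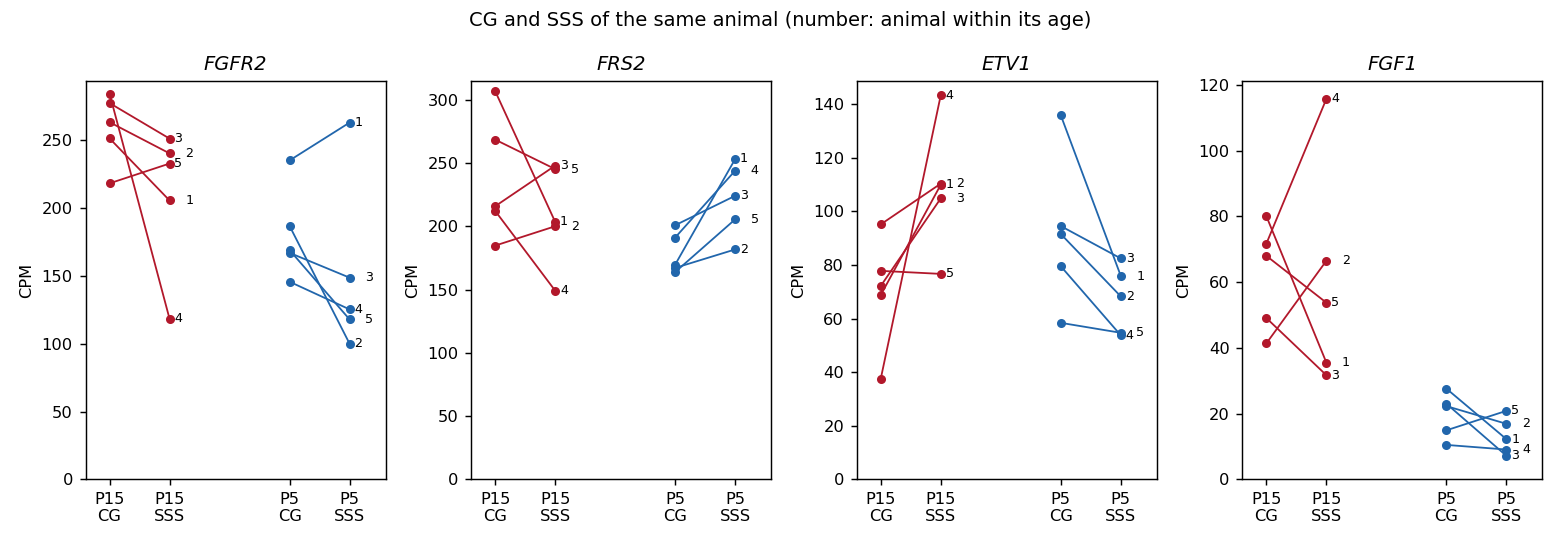
CPM of *FGFR2*, *FRS2*, *ETV1* and *FGF1* in the CG and the SSS of each animal, joined by a line, at P15 (red) and P5 (blue), with the animal's number beside its SSS point and each axis from 0. All 5 lines of *FRS2* climb from CG to SSS at P5 and those of *ETV1* descend, while at P15 *ETV1* climbs in 4 of 5 animals.

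Over all members, the test of the change of regional difference with age passed for 0 of 23 (edgeR, 0% of all genes passed, lowest *FDR* of a member 0.998), and 3, *ETV1*, *FRS2* and *FGF11*, had an unadjusted p below 0.05, where 3.85% of all genes did. The reads of *FGF11* came mostly from single libraries. In simulated libraries the test of the change with age called 2 of 100 planted 2-fold changes, so it would miss most of that size.

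Some animals stood at the end of their group in both regions for several of the 13 genes given by library. P15 animal 4 was the lowest of its age in both regions for 4, *DUSP4*, *FGF12*, *FGFR1* and *SPRED1*. P5 animal 1 was the lowest in both for *DUSP4* and *FGF12* and the highest in both for *FGFR2*. P15 animal 1 was the highest in both for *DUSP6* and *ETV5*, and P15 animal 3 for *FGFR1* and *SPRED1*. P15 animal 5 was the lowest in both for *ETV5* alone, and P5 animal 5 for *SPRED2* alone. No gene put P15 animal 2 or P5 animal 2, 3 or 4 at the same end in both regions. Among 5 animals some shared ends arise by chance, and whether there were more than that was not tested.

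The pathway around the members was followed in 72 further genes, of which 65 had a symbol in the table and 57 were tested. At P15 the CG had 8 of them higher and 3 lower, and the SSS had 8 higher and 2 lower, 11 and 10 of 57, where 13.1% and 14.6% of all genes passed. The median log2 fold change was 0.08 in the CG and 0.11 in the SSS. None of the 57 passed between regions. Of the 20 tested genes of heparan sulfate, the sugar chain that FGFs need to bind their receptors, 4 were higher and 1 lower in the CG and 4 were higher and none lower in the SSS, with median log2 fold changes of 0.41 and 0.55. Of 16 signal relay genes, 2 were higher and 1 was lower in each region. Of 7 other negative regulators 1 was higher in each region, of 6 other co-receptors 1 was higher and 1 lower in each, and none of 8 immediate early genes passed in either (edgeR).

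*SULF1*, an extracellular sulfatase that trims heparan sulfate, had the lowest *FDR* of these genes. It averaged 114.0 ± 28.04 CPM in the P15 CG and 26.4 ± 7.49 CPM in the P5 CG (log2 2.11, SE 0.26, edgeR *FDR* = 7.72e-07), and 115.8 ± 19.4 CPM in the P15 SSS and 36.3 ± 12.4 CPM in the P5 SSS (log2 1.68, SE 0.26, edgeR *FDR* = 2.45e-05). In either region the lowest P15 value, 76.3 CPM in the CG and 82.1 CPM in the SSS, exceeded the highest P5 value, 35.2 and 45.9 CPM. Of all genes, 7.32% lay wholly higher at P15 in the CG and 5.52% in the SSS. *PTPN11*, *NF1*, *GAB1* and *ANOS1* were also so separated in both regions. *ANOS1*, an extracellular protein that binds heparan sulfate and FGFR1 in human, averaged 21.7 ± 14.3 CPM in the P15 CG and 2.12 ± 2.157 CPM in the P5 CG, and 26.8 ± 24.9 CPM in the P15 SSS and 2.94 ± 2.73 CPM in the P5 SSS (log2 3.32 and 3.13, edgeR *FDR* = 0.00297 and 0.00388). Without the P15 SSS library of animal 4 the SSS value of *ANOS1* was 2.40 (edgeR *FDR* = 0.0231), and without both libraries of that animal 2.41 (0.0233), while the CG value was 4.16 (0.000999) without P5 animal 3. *SDC4*, a syndecan that carries heparan sulfate, had 68 reads in the P15 CG and 1 in the P5 CG, a ratio of 70.7 with a 95% counting interval of 12.3 to 2830. It had 82 in the P15 SSS and 1 in the P5 SSS, a ratio of 85.4 with an interval of 14.9 to 3410. The fit gave a log2 fold change of 5.24 in the CG (edgeR *FDR* = 0.00936) and 5.64 in the SSS (edgeR *FDR* = 0.00507). *SDC4* ranged from 0 to 10.05 CPM in the P15 CG and from 0 to 11.5 CPM in the P15 SSS. The highest P5 values were 0.301 and 0.239 CPM, so the ages overlapped in both regions. The CG call of *SDC4* was lost without P15 animal 3 (edgeR *FDR* = 0.0525) and with limma-voom (*FDR* = 0.0515). *NDST1*, a sulfotransferase of heparan sulfate, and *HSPG2*, the proteoglycan perlecan, also passed as higher at P15 in both regions. The *NDST1* calls were lost without P15 animal 1 or 3 or P5 animal 1 or 5 in the CG and without P15 animal 3 in the SSS (edgeR *FDR* 0.0504 to 0.0766). The *HSPG2* calls were lost without P15 animal 1, 2 or 3 or P5 animal 1, 2, 4 or 5 in the CG (edgeR *FDR* 0.0516 to 0.217) and without P15 animal 2 or 3 or P5 animal 3, 4 or 5 in the SSS (edgeR *FDR* 0.0504 to 0.161).

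The relay downstream of the receptor held genes that moved in either direction. *PTPN11*, the phosphatase SHP2 that binds FRS2, averaged 503.2 ± 80.2 CPM in the P15 CG and 269.5 ± 52.0 CPM in the P5 CG (log2 0.90, edgeR *FDR* = 4.73e-04), and 534.9 ± 37.9 CPM in the P15 SSS and 284.9 ± 56.9 CPM in the P5 SSS (log2 0.91, edgeR *FDR* = 4.08e-04). *GAB1*, a docking protein of the same complex, averaged 523.8 ± 88.9 CPM in the P15 CG and 309.0 ± 76.2 CPM in the P5 CG, and 544.2 ± 67.1 CPM in the P15 SSS and 307.0 ± 59.2 CPM in the P5 SSS (log2 0.76 and 0.83, edgeR *FDR* = 0.0041 and 0.00189). Both were higher at P15 in both regions. *GRB2*, the adaptor that brings SOS to the complex, passed as lower at P15 in both regions, with 138.1 ± 25.6 CPM in the P15 CG and 206.2 ± 30.0 CPM in the P5 CG, and 130.7 ± 28.3 CPM in the P15 SSS and 201.0 ± 41.9 CPM in the P5 SSS (log2 −0.58 and −0.62, edgeR *FDR* = 0.0418 and 0.0265). Its CG call was lost without P15 animal 2, 3 or 5 or P5 animal 2, 3 or 4 (edgeR *FDR* 0.058 to 0.144), and its SSS call without P15 animal 2, 3 or 4, P5 animal 3 or 5, or the P15 SSS library of animal 4 alone (edgeR *FDR* 0.0589 to 0.0985). *NF1*, the RAS inhibitor that SPRED1 recruits, averaged 1049 ± 147.1 CPM in the P15 CG and 565.0 ± 110.8 CPM in the P5 CG, and 1185 ± 256.1 CPM in the P15 SSS and 663.1 ± 120.1 CPM in the P5 SSS (log2 0.89 and 0.84, edgeR *FDR* = 7.15e-04 and 0.00135). *CDH2*, the N-cadherin that binds FGF receptors, passed as lower at P15 in both regions (log2 −0.45 and −0.49, edgeR *FDR* = 0.0476 and 0.0269). The *CDH2* calls were lost without P15 animal 2, 3, 4 or 5 or P5 animal 3, 4 or 5 in the CG (edgeR *FDR* 0.0578 to 0.142) and without P15 animal 2 or P5 animal 3 or 5 in the SSS (edgeR *FDR* 0.0544 to 0.0912). *GPC2*, a glypican of neurons, passed as lower at P15 in the CG (log2 −2.80, edgeR *FDR* = 0.0259) and not in the SSS (log2 −1.71, edgeR *FDR* = 0.177). Its CG call was lost without P15 animal 2, 3 or 5 or P5 animal 1 or 5 (edgeR *FDR* 0.0519 to 0.101), and its SSS difference passed without P15 animal 1 (log2 −2.81, edgeR *FDR* = 0.0397). *GRB2*, *CDH2*, *GPC2*, *NDST1* and *HSPG2* were chosen for naming after their values were seen.

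The genes whose levels ran most like *FGF1* over the 20 libraries were *LST1*, *ARHGAP10* and *BBOX1*, with Spearman coefficients of 0.926, 0.922 and 0.914. Those most like *FGFR2* were *PHKA1*, *SERPINB7* and *HEPACAM*, an adhesion molecule of glia, with 0.862, 0.847 and 0.847. These are descriptions over libraries that share their age groups and, in pairs, their animals, and *LST1* and *SERPINB7* had only 224 and 211 reads in all.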

How the data were processed

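The RNA of 20 laser-captured oSVZ libraries was amplified by single primer isothermal amplification, which adds no molecular identifiers. Counting intervals treat each read as independent and leave out the spread between animals, so they may be too narrow. Following the submitters' notes and the study's methods, reads were trimmed with Trimmomatic 0.38, inspected with FastQC 0.11.9, mapped onto MusPutFur1.0 by STAR 2.7.9a and totalled per gene with featureCounts, and the authors tested with edgeR 3.42.4 in R 4.3.1. The sources used here do not state whether counting was by strand. As deposited by the authors, these sums are raw counts, with no normalisation.

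In the deposited table the symbol column follows the sorted identifiers. Read line by line, 27 ribosomal protein genes had a median of 1.39 CPM, and with the identifiers sorted 851 CPM, so the sorted pairing was used. It names 17,208 of 32,057 identifiers and 10,533 of the 12,669 tested. No 2 libraries were alike, the closest pair differing in 14,897 genes.

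The present fits used edgeR 4.0.16, DESeq2 1.42.0 and limma 3.58.1 under R 4.3.3, and the plots matplotlib 3.10.9, numpy 2.4.6 and Python 3.11.15. Low genes were dropped by filterByExpr (at least 10 reads, total at least 15) and libraries scaled by TMM. The older quasi-likelihood F-test was fitted to all 20 libraries, with 4 group means for age (P15 over P5) and with the animal as a block for region (CG over SSS) and for the change of the regional difference with age. Benjamini-Hochberg *FDR* values cover all 12,669 genes, with a threshold of 0.05. Fold changes used a prior count of 0.125, and SE is the absolute log2 fold change over the root of F. The fits were tested on simulated libraries with no shared animal effect. Of 100 planted 2-fold changes they called 22 (age, CG), 14 (age, SSS), 18 (region, P5), 10 (region, P15) and 2 (change with age). Of 100 planted 4-fold changes they called 63, 55, 53, 50 and 35 in the same order. A member without a call may therefore still differ. The pairing comes from the library names, in which both libraries of an animal carry 1 name. Residuals of such pairs correlated with a median of 0.141 (0.046 to 0.246, n = 10), against −0.0466 for different animals (−0.16 to 0.133, n = 40).

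Members called in any comparison or averaging at least 20 CPM, 13 in number, are given by library, the others by group. Of the further pathway genes, the 6 with the lowest *FDR* are given with values, and for *FGF1* and *FGFR2* the 3 genes most alike. The members and lists were chosen with earlier results of these data known. Alternatives were other scalings, no filter, other tests, only the groups compared, no block, and leaving out each animal. Leaving out the P15 SSS library of animal 4 was added after the data were seen.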

Additional observations from a re-analysis of the deposited data

Results flagged for a closer look

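In 3 of the 52 groups of 5 libraries looked at (the 13 genes given by library, in 4 groups), 1 library lay far from the other 4 by Dixon's criterion (gap over range above 0.71). Chance alone gives about 1 in 20, or 2.6 of 52. *DUSP4* had 4.3 CPM in the P15 CG of animal 1, where the other animals had 0.383 to 0.731 CPM. *DUSP4* also had 2.73 CPM in the P15 SSS of animal 3, where the others had 0.454 to 1.014 CPM. *SPRY2* had 17.1 CPM in the P5 CG of animal 1, where the others had 32.5 to 34.9 CPM. Leaving out P5 animal 1 gave no call for *SPRY2* in either region, and leaving out P15 animal 1 kept both calls of *DUSP4*, while leaving out P15 animal 3 kept the SSS call and lost the CG call (edgeR *FDR* = 0.0556).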

How the results depend on the processing

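The calls of *FGF1* held in both regions under the 19 alternatives tried for each (edgeR *FDR* or its equivalent 4.65e-05 to 0.0073 in the CG and 3.21e-08 to 0.00103 in the SSS), and *DUSP4*, *SPRED1*, *ETV1* and *FGFR3* kept their direction under all 19 while losing the call under some. Members called between the ages numbered 4 in the SSS, with 1 under limma-voom, 1 under limma-voom with the animal as a random effect and 1 to 4 on leaving out animals (1 without P5 animal 4, and 2 without P15 animal 1 or 2). In the CG there were 3, and 1 to 3 on leaving out animals (1 without P15 animal 2, 3 or 5 or P5 animal 3). The further pathway genes called in the CG numbered 11, and 5 to 11 on leaving out animals (5 without P15 animal 3, 7 without P15 animal 2 or P5 animal 5). Both limma-voom fits lost *DUSP4* in both regions and *FGFR3* and *ETV1* in the SSS, the fit of only the groups compared lost *ETV1* in the SSS and called *FGFR2* in the CG (*FDR* = 0.0447), having no filter lost *SPRED1* in the CG, and the newer edgeR test called *FGF9* in the SSS (*FDR* = 0.0311). *CDH2* lost both calls with library size alone, no filter and only the groups compared, and its CG call with relative log expression. *GRB2* lost both calls with no filter, its CG call with library size alone and its SSS call with only the groups compared. Limma-voom lost *SDC4* in the CG and *HSPG2* in the SSS, only the groups compared lost *HSPG2* in the SSS, and both limma-voom fits called *GPC2* in the SSS.

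Values near 0 changed sign. *DUSP6* in the SSS, −0.03 by TMM, was 0.0138 with relative log expression, 0.0307 with library size alone and 0.0142 with DESeq2, and −0.201 to 0.0865 on leaving out animals. On leaving out animals, P15 over P5 ranged from −0.0823 to 0.138 for *SPRED2* in the CG, and in the SSS from −0.0724 to 0.422 for *FGFR1*, −0.0884 to 0.302 for *SPRY2* and −0.146 to 0.0279 for *FRS2*. CG over SSS at P15 ranged from −0.104 to 0.37 for *FGF1* and from −0.759 to 0.0685 for *FGFRL1*. The cause was not tested.

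With no replicate block the number of members called between regions was 0 at P15, 0 at P5 and 0 for the change with age, as with the block, and the counts over all genes were 0 at P15 and 0 at P5, against 2 and 5 with it. Over all genes the P5 regional count was 69 with no filter, 113 with DESeq2, 54 with limma-voom and 27 with the newer edgeR test, and 0 members were among them. Of the 17 secreted FGFs, 10 had reads and did not pass the filter on low counts.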

Other observations

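With no filter on low counts, 1 thinly read carrier gene passed. *FGFBP3*, which releases FGFs from the matrix, had 25 reads in the P15 SSS and 0 in the P5 SSS, a count that allows up to 3 reads or 0.182 CPM there, and its edgeR *FDR* was 0.0351. Of the 25 reads, 24 came from the P15 SSS library of animal 4 (10.9 CPM), the library that stood apart, so 1 capture carries the difference.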
